A study of Mus musculus with 4 samples.

Results

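The 10 genes described here, Spp1, Trem2, Apoe, Gpnmb, Fabp5, Cd36, Lpl, Cd9, Lgals3 and Tyrobp, are those usually named together as the signature of lipid-associated macrophages. They were taken by symbol from a table of 31053 genes, where each symbol matched 1 gene. The list was chosen with earlier results of these data known. The question was whether Spp1 and Trem2 were carried by the same cells. The table holds single-cell RNA counts from colon tumours raised in female C57BL/6 mice with the carcinogen azoxymethane (12.5 mg/kg) and 3 rounds of dextran sulphate sodium in the drinking water (2.5% in the first pair of rounds, then 2%; 5 days each), and taken 30 days after the last round. The labels give 4 samples, 1 of each kind: CD45-positive cells of EgfrΔMYL mice, which lack the EGF receptor in the myeloid lineage, CD45-negative cells of EgfrΔMYL mice, and the same 2 fractions of Egfr fl/fl mice, which served as controls. The Cre driver of the deletion, the ages and the number of animals per suspension are not stated in the labels. No source used here ties a barcode to a sample, so genotype and sort could not be compared and the whole matrix counts as 1 sample.

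Macrophages that take up lipid are known from fat, atherosclerotic plaque, brain and tumours. TREM2, a surface receptor for lipids and lipoproteins, signals through the adaptor DAP12, the product of Tyrobp. In mice TREM2 is needed for such cells to switch on genes of lipid uptake and lysosomal breakdown, Lpl, Cd9 and Gpnmb among them. Osteopontin, the secreted product of Spp1, binds integrins and CD44 and is made by macrophages in wounds and hypoxic tumour areas. Because Spp1 is often listed in the same signature, cells with Spp1 and cells with Trem2 are at times treated as 1 population and at times as separate ones.

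Spp1 lies on the forward strand of chromosome 5 (chr5:104435118-104441050 in mm10) and Trem2 on the forward strand of chromosome 17 (chr17:48346401-48354147). Their start-site sequences are shown because the results turn on these 2 genes. Each is the run of 250 bases before the start of transcription in RefSeq (GRCm38.p6), at chr5:104434861-104435110 and chr17:48346151-48346400, with matches to a searched motif in capitals.
Spp1: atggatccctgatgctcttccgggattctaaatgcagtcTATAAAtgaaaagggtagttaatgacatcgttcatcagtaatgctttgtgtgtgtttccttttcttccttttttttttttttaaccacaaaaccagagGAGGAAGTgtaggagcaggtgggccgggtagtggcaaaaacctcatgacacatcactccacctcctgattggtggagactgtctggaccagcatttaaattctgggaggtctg
Trem2: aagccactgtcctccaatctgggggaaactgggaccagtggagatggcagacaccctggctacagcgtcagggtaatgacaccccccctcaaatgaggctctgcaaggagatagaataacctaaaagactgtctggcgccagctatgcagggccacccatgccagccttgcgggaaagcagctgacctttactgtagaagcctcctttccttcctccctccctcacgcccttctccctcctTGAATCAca
The Spp1 window held the letters GAGGAAGT, a core bound by ETS factors such as PU.1, 113 to 106 bases before the start, and TATAAA, 211 to 206 bases before it. GAGGAAGT was in 2.44% and TATAAA in 12.4% of 32851 promoter windows of this length, on either strand. The Trem2 window held TGAATCA, a form of the AP-1 motif TGANTCA, 9 to 3 bases before the start, and TGANTCA was in 6.75% of windows. The windows shared no searched motif, CACGTG and CATGTG (E-boxes) and TGACNNNGC (NRF2) being in neither. These are matches of letters and nothing is drawn from them about binding.

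The matrix held 129529250 UMIs (tags of single molecules) in 18026 barcodes, of which 14138 cells were kept. Barcodes end in 1 of 4 numbers, called libraries 1 to 4 here, which were assigned to no group. Their kept cells numbered 593, 1700, 4466 and 7379, with median depths of 4491, 3379.5, 4914.5 and 5176 UMIs. Libraries 1 and 2 stand apart: the cell filter removed 59.1 and 56.4% of their barcodes, against 9.76 and 4.49% in libraries 3 and 4, and haemoglobin took 8.92 and 0.984% of their UMIs, against 0.00121 and 0.0207%. They gave 16 of the 2538 monocyte/macrophage-like cells, so results on those cells rest on libraries 3 and 4. Of 37 clusters, 29 were named from marker genes. C1q-positive monocyte/macrophage-like cells were 1 cluster of 1101 cells, in which 99.5% had a UMI of C1qa, C1qb or C1qc, subunits of complement C1q. C1q-low monocyte/macrophage-like cells were 3 clusters of 660, 423 and 354 cells, in which that share was 65.8, 31.9 and 42.9%. The cut between the 2 classes was set after the clusters were seen. Neutrophil-like cells numbered 2645, dendritic-like 830 and epithelial-like 1801. Markers went with the names: Csf1r, the receptor for macrophage growth factor, stood at 872 CPM (a gene's UMIs scaled to the UMI total of the class) in C1q-positive and 446 CPM in C1q-low cells, against 48.9, 66.5 and 6.75 CPM in neutrophil-like, dendritic-like and epithelial-like cells. C1q-low cells had more Ccr2, a monocyte chemokine receptor (88.0 CPM in C1q-positive, 424.5 CPM in C1q-low cells), and less Adgre1, which encodes F4/80 (322 and 56.1 CPM). They also had more of the neutrophil marker S100a9 (223 and 993 CPM) and of the haemoglobin gene Hbb-bs (14.3 and 383 CPM), whose part in the results was not tested. Csf3r, a neutrophil receptor, was close between them (36.3 and 41.9 CPM). Intervals below are 95% intervals for counting error alone, and with 1 sample no p-value was computed.

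Spp1 and Trem2 peaked in different classes. Trem2 was highest in C1q-positive cells, at 242 CPM (234 to 250), and stood at 87.6 CPM (83.2 to 92.1) in C1q-low cells. Spp1 was highest in C1q-low cells, with 192 CPM (185 to 199) in C1q-positive cells against 1390 CPM (1373 to 1408) in C1q-low cells. The order was the same in each of the libraries that hold these cells. In library 3 Spp1 stood at 217 CPM in C1q-positive and 2266 CPM in C1q-low cells, and in library 4 at 179 and 1075 CPM. Trem2 stood at 282 CPM in C1q-positive and 99.3 CPM in C1q-low cells of library 3, and at 221 and 82.9 CPM in library 4. Outside the macrophages the genes parted further. Spp1 reached 417 CPM (403 to 431) in neutrophil-like cells, above its level in C1q-positive cells, and was 283 CPM in library 3 and 491 CPM in library 4, whereas Trem2 was at 4.60 CPM there. In dendritic-like cells Spp1 stood at 50.7 CPM and Trem2 at 4.86 CPM, but 1 cell gave 379 of the 542 Spp1 UMIs and 1 cell 22 of the 52 Trem2 UMIs. Epithelial-like cells had 57.6 CPM of Spp1, with 137 of 1016 UMIs in 1 cell, and 2.27 CPM of Trem2. The intervals of dendritic-like and epithelial-like cells overlapped for Spp1, and those of dendritic-like and neutrophil-like cells for Trem2. Of all kept UMIs, C1q-low cells held 67.7% for Spp1 and C1q-positive cells 52.5% for Trem2, with another 24.8% of Trem2 in unnamed clusters.

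**Figure D1:**
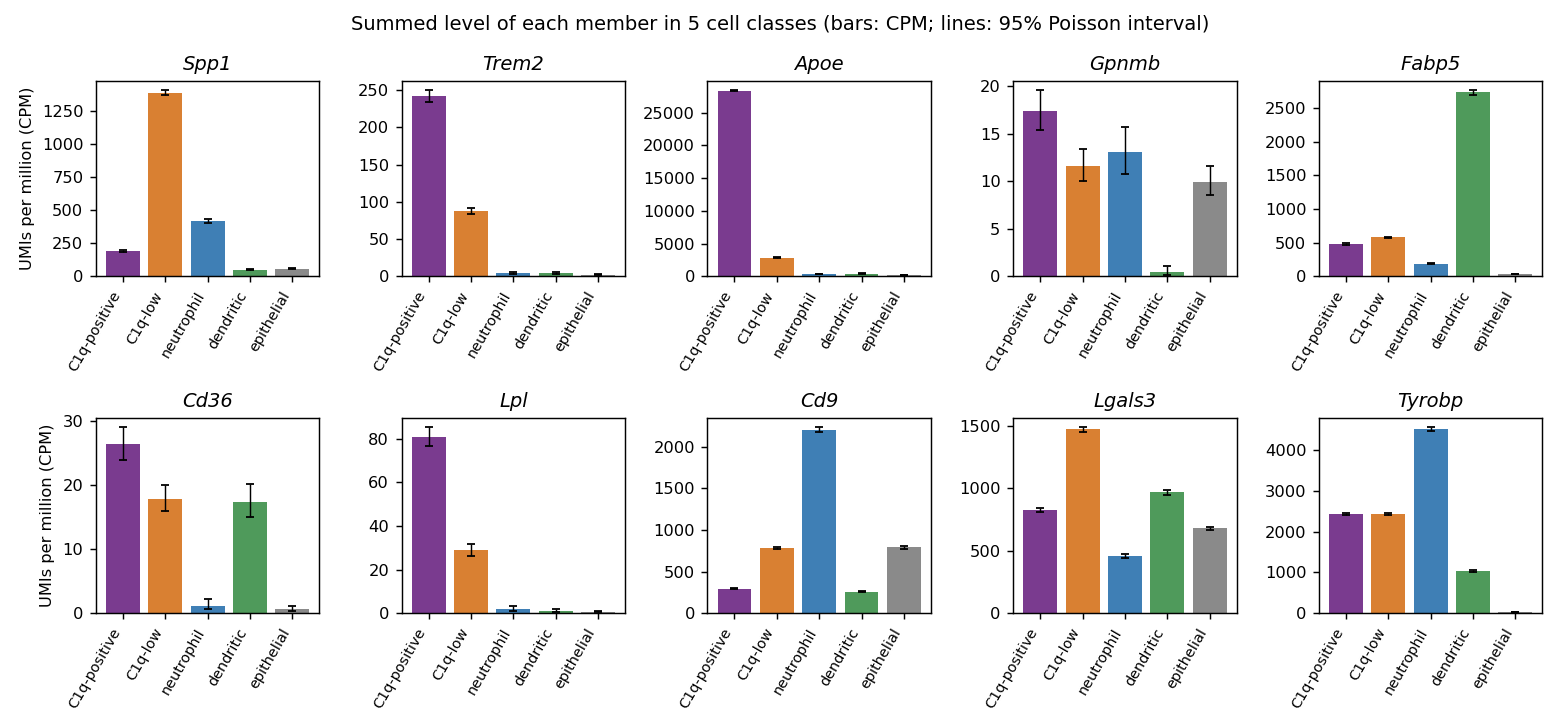
Level of each of the 10 genes (bars, CPM from 0 on an axis of its own for each gene; lines are exact 95% Poisson intervals for counting error) in C1q-positive, C1q-low, neutrophil-like, dendritic-like and epithelial-like cells of the pooled matrix. Trem2 and Apoe are highest in C1q-positive cells and Spp1 in C1q-low cells, with 192 CPM in C1q-positive and 1390 CPM in C1q-low cells.

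Apoe, which encodes apolipoprotein E, the carrier of cholesterol that macrophages secrete, had the most UMIs of the 10 and the largest fold between the C1q classes. It stood at 28344 CPM there and 2870 CPM in C1q-low cells, with 28676 and 2671 CPM in library 3 and 28165 and 2939 CPM in library 4. It was also detected in lymphocytes and neutrophils, where its pooled ratio to C1qb mostly lay near that of the macrophages. There were 5.09 Apoe UMIs per C1qb UMI in C1q-positive cells, 3.36 in C1q-low, 6.97 in neutrophil-like, 4.53 in dendritic-like, 4.13 in epithelial-like and 5.67 in T/NK-like cells. Dendritic-like cells had 1.05 in library 3 and 5.14 in library 4. B-like cells were highest with 48.4 per C1qb UMI and 772 CPM of Apoe, and the ratio was 51.3 in library 3 and 42.3 in library 4. Trem2 UMIs per C1qb UMI were 0.0434 in C1q-positive, 0.102 in C1q-low, 0.0799 in neutrophil-like, 0.0503 in dendritic-like, 0.0596 in epithelial-like, 0.0429 in T/NK-like and 0.0686 in B-like cells, the last 5 from few Trem2 UMIs. Spp1 varied more: there were 0.034 Spp1 UMIs per C1qb UMI in C1q-positive cells, 1.63 in C1q-low and 7.25 in neutrophil-like cells.

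The genes of lipid handling did not share a pattern. Lpl, which encodes lipoprotein lipase, the enzyme that frees fatty acids from lipoproteins, stood at 80.9 CPM in C1q-positive and 28.9 CPM in C1q-low cells, and at 2.00 CPM or less in neutrophil-like, dendritic-like and epithelial-like cells. Cd36, a scavenger receptor for fatty acids and oxidised lipoprotein, stood at 26.4 and 17.9 CPM in C1q-positive and C1q-low cells and at 17.4 CPM in dendritic-like cells. Its highest level of any cluster was in an unnamed cluster of 82 stromal cells led by Col3a1 and Plvap, at 191 CPM, which also had 91.1 CPM of Lpl, 258 CPM of Spp1 and no Trem2 UMI. Fabp5, a fatty-acid-binding protein of the cytosol, stood at 477 CPM in C1q-positive and 579 CPM in C1q-low cells, and was highest in dendritic-like cells at 2732 CPM. Gpnmb, a membrane glycoprotein of lysosomes and melanosomes that marks many lipid-laden macrophages, was at the edge of detection. It stood at 17.4 CPM (15.4 to 19.6) in C1q-positive cells, 11.6 CPM (10.1 to 13.4) in C1q-low cells and 13.1 CPM (10.8 to 15.8) in neutrophil-like cells, and neighbours in that order overlapped. In C1q-positive cells Gpnmb was 30.6 CPM in library 3 and 10.3 CPM in library 4, so its rank among the classes rests on library 3.

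The remaining members were broad. Cd9, a tetraspanin of the cell surface, stood at 294 CPM in C1q-positive and 785 CPM in C1q-low cells, and was highest of the 5 classes in neutrophil-like cells at 2207 CPM. Lgals3, the lectin galectin-3, stood at 824 and 1472 CPM in C1q-positive and C1q-low cells, 968 CPM in dendritic-like and 681 CPM in epithelial-like cells. Tyrobp, the DAP12 adaptor that many myeloid receptors share, stood at 2442 CPM in C1q-positive and 2428 CPM in C1q-low cells and at 4520 CPM in neutrophil-like cells, whose Trem2 was near 0. Of the 10 genes, 7 were highest in a monocyte/macrophage-like class, and 6 when library 3 was left out. The share of all genes highest in such a class was not computed, so nothing is drawn from this count.

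Set against each other, the C1q classes divided the signature. In C1q-positive over C1q-low cells 3 of the 10 genes were at least 2-fold higher, where 16.7% of 12949 genes were, and 2 were at least 2-fold lower, where 6.07% were. The higher ones were Apoe (log2 fold 3.30), Trem2 (1.46) and Lpl (1.45), and the lower ones Spp1 (-2.85) and Cd9 (-1.42). Gpnmb and Cd36 had 0.54 each, Tyrobp 0.01, Fabp5 -0.28 and Lgals3 -0.84. The median of the 10 was 0.27 and that of all genes 0.36. Within library 3 the number higher was 5, with Gpnmb (1.93) and Cd36 (1.60) added, where 21.3% of genes were, and 2 were lower, where 6.79% were. Within library 4 it was the same 3 genes higher, where 17.6% were, and the same 2 lower, where 6.39% were. Without library 4 the number higher was likewise 5. With the C1q-low cluster led by Gm15056 and Serpinb2 left out, 1 gene was lower instead of 2.

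**Figure D2:**
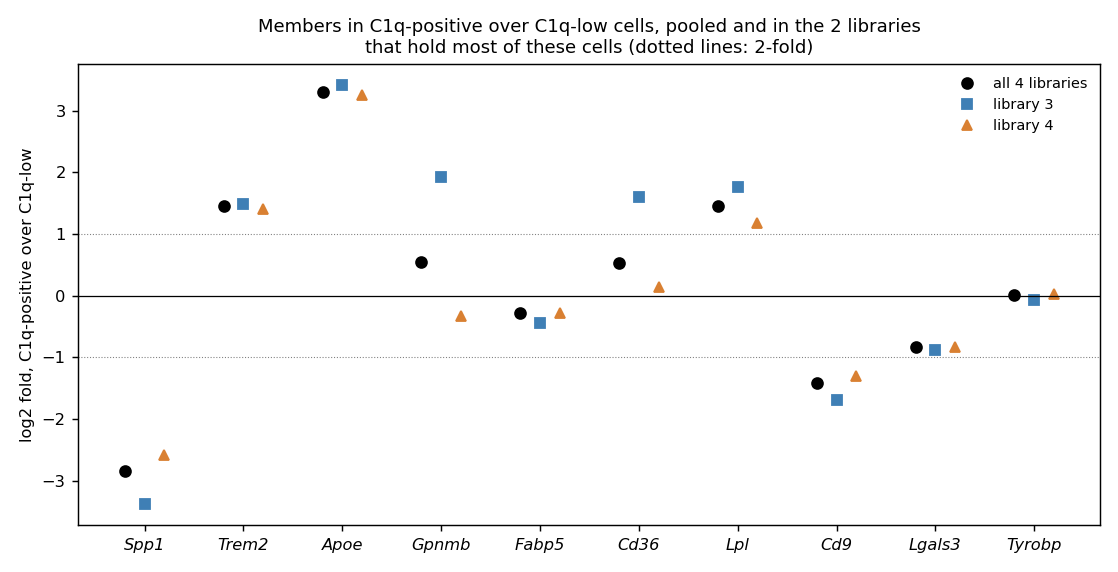
Log2 fold of each of the 10 genes in C1q-positive over C1q-low cells, 1 CPM added, in the pooled matrix and in libraries 3 and 4 alone; the libraries are unassigned and are not replicates. Apoe, Trem2 and Lpl lie above 1 and Spp1 below -1 in both libraries.

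Of the companion gene lists, the lysosome, hypoxia and resident-type ones split along the same line. Of 17 lysosome genes 9 were at least 2-fold higher in C1q-positive cells and 0 lower (median 1.24), led by Cd63 (2.68), a tetraspanin of late endosomes, and the enzymes Lgmn (2.04) and Gusb (1.61). Of 14 hypoxia and angiogenic genes often listed with Spp1, 0 were higher and 12 lower (median -2.00), with Inhba, an activin subunit, at -5.41, the hypoxia gene Ndrg1 at -3.96 and Thbs1, which encodes the matrix protein thrombospondin-1, at -3.03. Resident-type genes often listed with C1q gave 9 of 10 higher and 1 lower (median 3.40), among them the chemokine gene Ccl8 (6.60), Gas6 (4.91), a bridge to dying cells, and the folate receptor Folr2 (3.93). In the lists closest to lipid the picture was mixed. Uptake receptors gave 3 higher and 1 lower of 8, with the dying-cell receptors Axl at 1.96 and Mertk at 1.85, and Olr1, a receptor for oxidised lipoprotein, at -4.44. Storage and hydrolysis genes gave 2 higher and 2 lower of 9, with the triglyceride-forming enzyme Dgat2 at -2.24 and the cholesterol ester hydrolases Nceh1 at 1.93 and Lipa at 1.48. Cholesterol efflux genes and targets of the sterol receptor LXR gave 2 higher and 0 lower of 8, Pltp (1.32), a phospholipid transfer protein, and Pparg (1.09), with Mylip at 0.90. The 6 partners of TREM2 and DAP12 signalling gave 0 in either direction. Osteopontin receptors gave 2 higher and 1 lower of 7, the integrin chains Itga9 at 2.43 and Itgb5 at 1.67 and Cd44 at -1.97, so Cd44 was higher where Spp1 was. Beside these counts, all-gene shares were again 16.7% higher and 6.07% lower.

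The C1q-low class was itself uneven. Its 3 clusters are called by their leading genes: Tgfbi and Dcstamp (660 cells), Chil3 and F13a1 (423 cells), and Gm15056 and Serpinb2 (354 cells). In the last of these erythroid markers scored 4.27 and monocyte/macrophage markers 3.75, with neutrophil markers at 2.54. Its Hbb-bs lay in 19 of the 354 cells, 1 of which held 4158 of 6525 UMIs. Spp1 stood at 192 CPM in the C1q-positive cluster and at 1183, 144 and 3101 CPM in these, and Trem2 at 242 CPM in the C1q-positive cluster and at 120, 73.6 and 40.2 CPM in these. The cluster lowest in Trem2 was thus highest in Spp1, and the Chil3 and F13a1 cluster was low in both. Arg1, which encodes the arginine-degrading enzyme arginase 1, followed Spp1 among these, with 109 CPM in the C1q-positive cluster and 615, 33.3 and 1956 CPM in the C1q-low clusters. Apoe stood at 28344 CPM in the C1q-positive cluster and at 4322, 1560 and 1491 CPM in the C1q-low clusters. Which cluster led in Spp1 held in each library, but not the size: the Gm15056 and Serpinb2 cluster had 7049 CPM in library 3 and 1462 CPM in library 4, and the Tgfbi and Dcstamp cluster 481 and 1413 CPM. In library 4 those 2 clusters were therefore close. Set over the other 2 C1q-low clusters, the Gm15056 and Serpinb2 cluster had 2 of the 10 genes at least 2-fold higher, Spp1 (log2 fold 1.93) and Cd9 (1.75), where 3.72% of genes were, and 2 at least 2-fold lower, Trem2 (-1.34) and Apoe (-1.16), where 18.4% were. Of its 14 hypoxia and angiogenic genes 7 were higher, led by Inhba (3.15), the haem-degrading enzyme gene Hmox1 (2.76) and Arg1 (2.26).

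**Figure D3:**
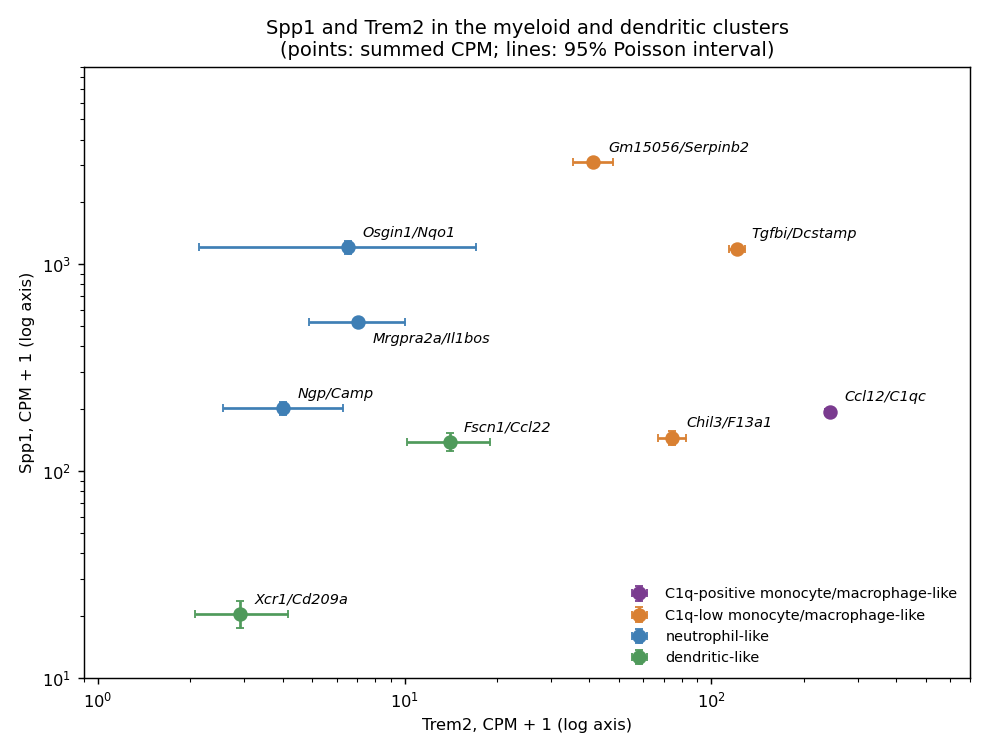
Trem2 level (x axis, CPM + 1, log axis) against Spp1 level (y axis, CPM + 1, log axis) in each monocyte/macrophage-like, neutrophil-like and dendritic-like cluster of the pooled matrix, with exact 95% Poisson intervals. The C1q-positive cluster, marked Ccl12/C1qc, is highest in Trem2 at 242 CPM, and the Gm15056/Serpinb2 cluster is highest in Spp1 at 3101 CPM with 40.2 CPM of Trem2. The Osgin1/Nqo1 neutrophil-like cluster has 1204 CPM of Spp1 with 5.51 CPM of Trem2, the latter from 3 UMIs in 1 cell.

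Spp1 was concentrated in few cells, and Trem2 less so. The 10% of cells with most Spp1 held 96.6% of its UMIs in C1q-positive cells, 92.5% in C1q-low cells and 96.9% in neutrophil-like cells. For Trem2 those shares were 38.7% in C1q-positive and 55.8% in C1q-low cells, and for Apoe 27.1 and 62.2%. A single cell of the Gm15056 and Serpinb2 cluster held 1958 Spp1 UMIs. A class level of Spp1 is therefore a level of a minority of cells, which the shares below show.

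For shares, each cell was thinned at random to 2000 UMIs so that deep and shallow cells could be compared. Spp1 was then seen in 7.74% of 1033 C1q-positive cells (6.19 to 9.55) and 21.4% of 1376 C1q-low cells (19.3 to 23.7), with 68 and 61 shallower cells left out. Neutrophil-like cells had Spp1 in 13.1%, epithelial-like in 4.98% and dendritic-like in 2.20%. T/NK-like and B-like cells, which should lack Trem2, had Trem2 in 0.160 and 0.289% and Spp1 in 0.799 and 0.722%. Trem2 was seen in 34.2% of C1q-positive cells (31.3 to 37.2) and 12.6% of C1q-low cells (10.9 to 14.4). In neutrophil-like, dendritic-like and epithelial-like cells the Trem2 share was 0.515, 0.389 and 0.482%. Their intervals overlapped those of T/NK-like and B-like cells, but rest on few cells and cannot show that these shares are background. Without thinning they were 0.983, 2.29 and 0.611%, at median depths of 2861, 12031.5 and 5143 UMIs. T/NK-like and B-like cells then had 0.504 and 0.454%. Before thinning, Trem2 was seen in 70.6% of C1q-positive and 39.4% of C1q-low cells and Spp1 in 18.8 and 31.7%, at median depths of 13176 and 11506 UMIs (4817.5 in T/NK-like and 4002 in B-like cells).

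Spp1 and Trem2 were next read in the same cells. In the draw used for the shares above, 82 of 2409 monocyte/macrophage-like cells held both transcripts, 444 Trem2 alone, 293 Spp1 alone and 1590 neither. Spp1 was thus in 15.6% of cells with Trem2 (12.6 to 19.0) and 15.6% of cells without it (13.9 to 17.3). Expected shares were then taken as ratios of the exact expected numbers of cells over all possible draws. They were 14.7 and 15.6%, a difference of -0.92 percentage points, and 20 further draws gave differences between -3.54 and 0.815 points. The range over draws covers the thinning alone, not the spread between cells or mice, and the drawn shares' binomial intervals overlapped.

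Within a class the picture differed somewhat from the pooled one. C1q-positive cells are rich in Trem2 and C1q-low cells in Spp1, but the part of this makeup in the difference was not tested. In C1q-positive cells the expected Spp1 share was 9.34% in cells with Trem2 and 7.12% in cells without, 2.22 points apart, and 20 draws ran from -2.29 to 5.40 points. The draw behind the shares gave 5.88 points there, outside that range, so its value is not relied on. In C1q-low cells the shares were 24.8 and 20.5%, 4.30 points apart, with draws from 0.508 to 12.1 points. By cluster they were 29.3 and 21.2% in the Tgfbi and Dcstamp cluster (draws 3.30 to 19.4 points), 6.17 and 6.00% in the Chil3 and F13a1 cluster (-3.58 to 7.43 points) and 48.2 and 35.6% in the Gm15056 and Serpinb2 cluster (-1.58 to 35.2 points), where only about 9.86 cells held both. The libraries did not run alike. In C1q-low cells of library 3 the shares were 19.4% with Trem2 and 24.0% without, a difference of -4.57 points, while in library 4 they were 26.3 and 19.2%, a difference of 7.13 points. Over both classes the difference was -5.31 points in library 3 and 0.84 points in library 4. In C1q-positive cells the shares were 9.20 and 8.45% in library 3 and 9.48 and 6.59% in library 4. The sign in C1q-low cells thus rests on library 4, and how each library relates to genotype or sort is unknown.

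**Figure D4:**
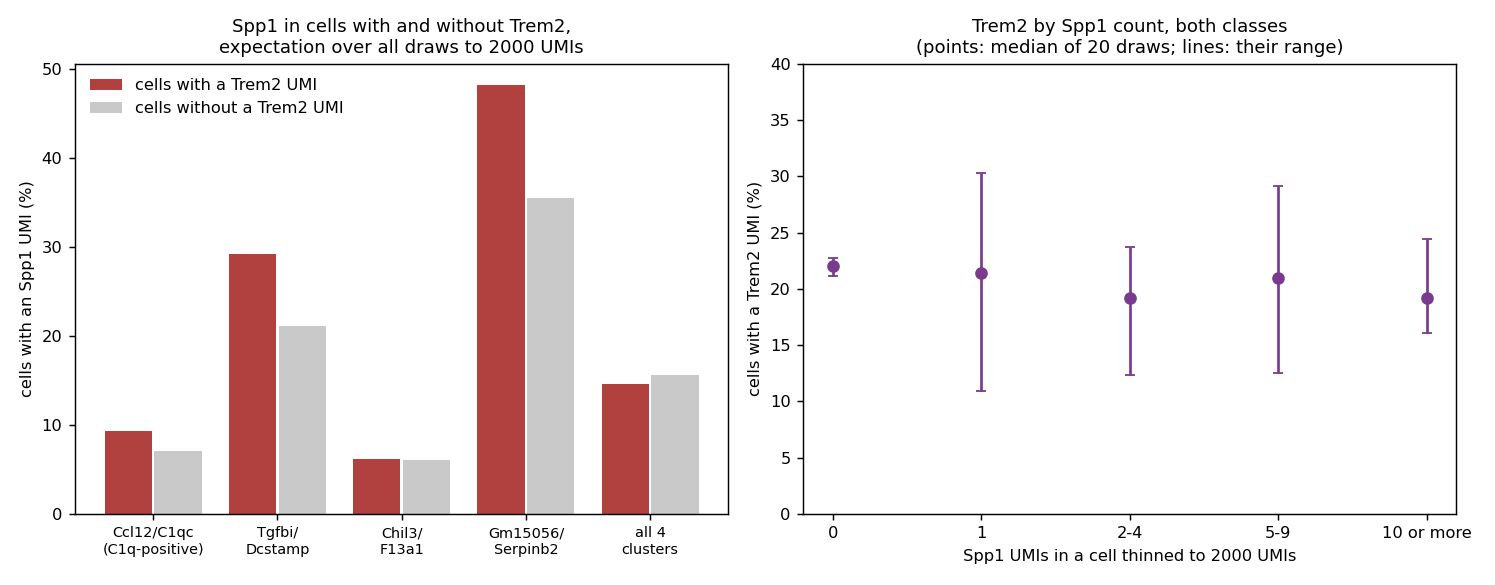
Left, expected share of cells with Spp1 (%) among cells with and without Trem2 in the 4 monocyte/macrophage-like clusters and in all of them, each cell thinned to 2000 UMIs; right, share of cells with Trem2 (%) by Spp1 UMIs in the cell, as median and range over 20 draws. Over all clusters the shares on the left are 14.7 and 15.6%, and on the right the medians lie between 19.2 and 22.0%.

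The cells were also read by their Spp1 level. The share of cells with Trem2 was 22.0% (range over 20 draws 21.1 to 22.8) where no Spp1 was seen, 21.4% (10.9 to 30.3) at 1 Spp1 UMI, 19.2% (12.4 to 23.7) at 2 to 4, 21.0% (12.5 to 29.1) at 5 to 9 and 19.2% (16.1 to 24.4) at 10 or more. The ranges of neighbouring bins overlapped, and they cover the thinning alone. The cells with 10 or more Spp1 UMIs gave 75.5% of all thinned Spp1 UMIs, as the median of the 20 draws (72.7 to 77.3). Across the 2409 cells the Pearson correlation of log-transformed values was -0.02 for Spp1 with Trem2, 0.40 for Spp1 with Cd9, 0.32 for Trem2 with Apoe and -0.22 for Spp1 with Apoe, with depth equal and libraries mixed. Within C1q-positive and C1q-low cells these were 0.10 and 0.01, 0.24 and 0.40, 0.19 and 0.21, and -0.16 and -0.09. How far the pooled values hold the difference between the classes was not tested. Each r comes from 1 thinned set of cells, without a range over draws, and the 0.10 in C1q-positive cells is not relied on.

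Of the other 8 genes, Apoe went with Trem2, and Cd9 and Lgals3 with Spp1. The levels that follow are medians over 20 draws, in cells with both transcripts, with Trem2 alone, with Spp1 alone and with neither, and ranges are over draws. Apoe stood at 13251, 25683, 5217 and 12762 CPM. Cd9 stood at 997 CPM (852 to 1420), 267 CPM (232 to 296), 1284 CPM (1165 to 1360) and 409 CPM. Lgals3 stood at 1717, 916, 1626 and 1078 CPM. Lpl was highest in cells with both, at 145 CPM (53.3 to 208), against 57.6 CPM (43.0 to 80.6), 53.2 CPM (28.5 to 73.2) and 33.2 CPM, though its ranges overlapped. Cd36 in cells with both ran from 6.67 to 127 CPM over draws and Gpnmb from 0 to 65.2 CPM, too wide to place. Fabp5 stood at 691 CPM (472 to 922) in cells with both and at 481, 455 and 464 CPM in the other groups, and Tyrobp at 2218, 2628, 1901 and 2390 CPM.

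In the drawn set, cells with Trem2 alone over cells with Spp1 alone had 1 of these 8 genes at least 2-fold higher, Apoe (log2 fold 2.61), where 18.6% of 8188 genes were, and 1 lower, Cd9 (-2.17), where 6.64% were. All 14 hypoxia and angiogenic genes were at least 2-fold lower (median -1.96), led by Inhba (-3.76), the oxidase gene Ero1l (-3.19) and Arg1 (-3.17). Resident-type genes gave 7 of 8 higher (median 3.14) and lysosome genes 10 of 16 (median 1.08). Cells with both transcripts differed from those with Trem2 alone too. Over cells with Trem2 alone they had 10 of the 14 hypoxia and angiogenic genes higher, where 5.63% of genes were, and 6 of 8 resident-type genes lower, where 17.5% were, among them Ccl8 (-3.06). Over cells with neither transcript, cells with both had 3 of the 8 other genes higher, Lpl (2.33), Cd9 (1.36) and, from 6 UMIs, Cd36 (1.22), where 7.77% of genes were, and 0 lower, where 21.8% were. This draw gave cells with both 16951 CPM of Apoe, above the 9186 to 16235 CPM of the 20 draws. Over those draws Arg1 had medians of 1374, 111, 1635 and 277 CPM in the 4 groups, and the elastase gene Mmp12 1050, 227, 823 and 275 CPM. The groups differ in makeup, since cells with Trem2 alone are mostly C1q-positive and cells with Spp1 alone mostly C1q-low, so these contrasts and the one between the C1q classes are not separate evidence.

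**Figure D5:**
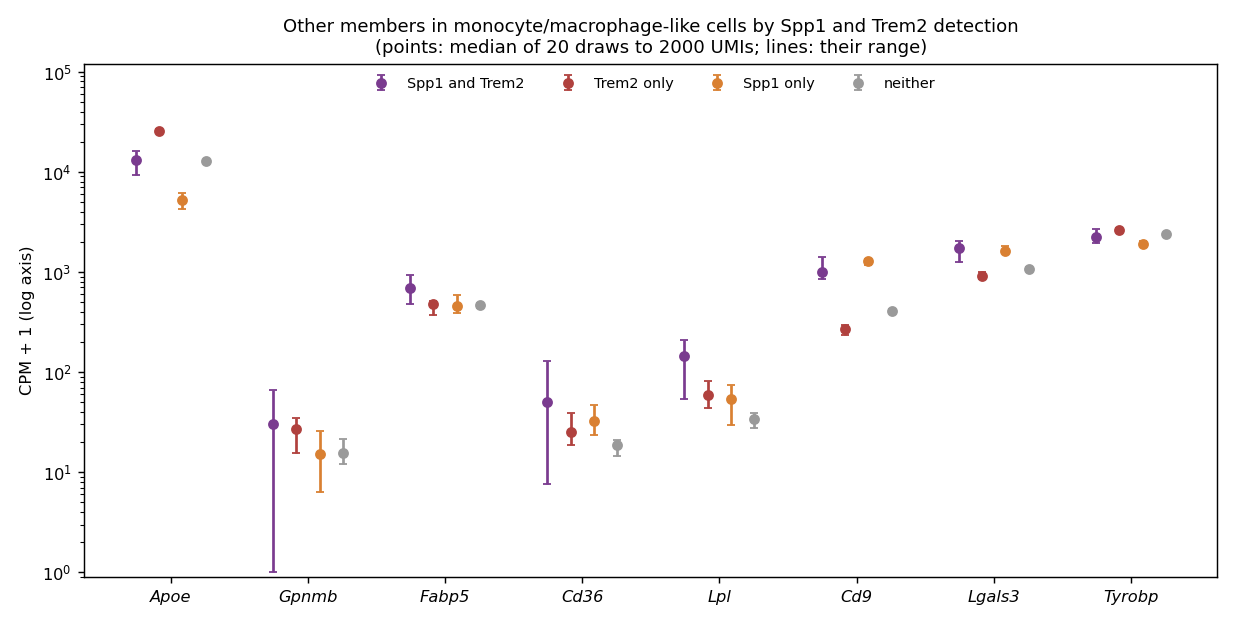
Level of the other 8 genes (CPM + 1, log axis) in monocyte/macrophage-like cells with both transcripts, Trem2 alone, Spp1 alone or neither; points are medians and lines the range over 20 thinning draws to 2000 UMIs. Apoe is highest with Trem2 alone (25683 CPM) and Cd9 with Spp1 alone (1284 CPM).

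Over neutrophil-like cells, the monocyte/macrophage-like cells together had 6 of the 10 genes at least 2-fold higher, where 51.1% of genes were, and 1 lower, Cd9 (log2 fold -2.01), where 7.67% were. The higher ones were Apoe (5.23), Trem2 (4.86), Lpl (4.19), Cd36 (3.40), Fabp5 (1.48) and Lgals3 (1.34), and the all-gene median was 1.04, so the count is near the background. Spp1 had only 0.96, below that median, and Gpnmb 0.13 and Tyrobp -0.89. Within library 3 the count was 8 higher, where 63.2% were, and 1 lower, where 7.29% were, and within library 4 it was 7 and 1, where 53.6 and 8.4% were. Spp1 had 1.99 in library 3 and did not reach 1 in library 4. Gpnmb had 3.44 and 1.21 within these libraries. Libraries 1 and 2 held 21 and 62 of the 105 Gpnmb UMIs of the neutrophil-like cluster described next. Over dendritic-like cells 7 genes were higher, where 10.3% were, and 1 lower, Fabp5 (-2.36), where 7.79% were. Over epithelial-like cells 7 were higher, where 13.1% were, and 0 lower, where 35.6% were.

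Among neutrophil-like cells Spp1 and Gpnmb were highest in 1 small cluster. The cluster led by Osgin1 and Nqo1, genes of the oxidative stress response, held 214 cells, beside clusters led by Mrgpra2a and Il1bos (1395 cells) and by Ngp and Camp (1036 cells). Spp1 stood at 1204 CPM in it, near its level in the Tgfbi and Dcstamp monocyte/macrophage-like cluster, against 527 and 200 CPM in the other 2. Trem2 stood at 5.51 CPM in the Osgin1 and Nqo1 cluster, from 3 UMIs in 1 cell, against 6.06 and 3.02 CPM. Its Spp1 was 100 CPM in library 1, from 3 UMIs in 9 cells, and 1285, 1274 and 1263 CPM in libraries 2, 3 and 4. In those 3 libraries a single cell held 69 of 92, 51 of 100 and 153 of 460 UMIs. Gpnmb stood at 193 CPM, against 0.756 CPM in the other neutrophil-like clusters together, a log2 fold of 6.79. With Spp1 (1.73), Lgals3 (1.56) and Cd9 (1.21), 4 of the 10 genes were at least 2-fold higher there, where 27.2% of genes were, and 1 counted as lower, where 18.9% did. That one, Cd36, had 0 UMIs, which allows up to 5.51 CPM, against 1.26 CPM in the other clusters, so no difference was detectable. The share of members higher was not far from that of all genes. Within library 3 the cluster had 3 of 7 members tested higher, where 24.9% were, and 2 lower, where 33.8% were, and within library 4 it had 5 of 9 higher, where 27.0% were, and 0 lower, where 19.7% were. Spp1, Lgals3 and Cd9 were among the higher ones in both. In the pooled matrix lysosome genes gave 10 of 16 higher, among them Psap (3.64), Cd63 (3.24) and Ctsb (3.14), and the hydrolases Nceh1 and Lipa had 5.59 and 4.16.

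The Gpnmb of that cluster came from few cells, which were unlike the rest. Its level was 701 and 866 CPM in libraries 1 and 2 but 12.7 and 57.7 CPM in libraries 3 and 4, and 16 of the 214 cells held all 105 UMIs. Those 16 cells had 4692 CPM of S100a9 and 11559 CPM of S100a8, the calprotectin genes of neutrophils, against 45527 and 45843 CPM in the other 198. Csf3r was seen in 1 of the 16 and 106 of the 198 cells. The macrophage-lysosome marker Cd68 stood at 1368 CPM in the 16 and 449 CPM in the 198 cells, Cd63 at 3201 and 1288 CPM and Lgals3 at 2566 and 1093 CPM. Trem2 had 0 UMIs in the 16 cells, which allows up to 73.3 CPM, and 5.96 CPM in the 198, from 3 UMIs in 1 cell. No difference in Trem2 was therefore detectable. Spp1 stood at 293 CPM in the 16 and 1278 CPM in the 198 cells. Spp1 was nevertheless seen in 4 of the 16 and 41 of the 198 cells, so the gap in its level lies in few cells with many UMIs. The 16 cells were chosen after their values were seen.

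Among dendritic-like cells, Fabp5 was a gene of the cluster led by Fscn1 and Ccl22 (297 cells), markers of migratory dendritic cells, at 7650 CPM against 950 CPM in the cluster led by Xcr1 and Cd209a (533 cells), a log2 fold of 3.01. Fabp4, which encodes a related binding protein, had 3.94, and the endosomal Cd63 4.49. Of 9 members tested 5 were at least 2-fold higher, where 10.9% of genes were, and 2 lower, Cd36 (-2.26) and Lgals3 (-1.72), where 16.4% were. Apoe was among the higher ones, at 1415 CPM and 83.0 CPM (4.08), but 819 of its 4025 UMIs lay in 1 cell and the call rests on library 4. Apoe there was 2364 CPM in the Fscn1 and Ccl22 cluster and 98.7 CPM in the Xcr1 and Cd209a cluster, against 38.9 and 46.7 CPM in library 3. Spp1 (2.76) and Trem2 (2.27) rested on 1 cell each, with 379 of 390 and 22 of 37 UMIs. In library 3 Spp1 was lower in the Fscn1 and Ccl22 cluster, at 3.54 CPM against 27.5 CPM, and Trem2 had 0 UMIs in that cluster. The remaining higher gene, Lpl, had 7 UMIs in 3 cells of that cluster. Nothing is therefore drawn from the count of 5. In the dendritic-like class as a whole, Fabp5 stood at 3198 CPM in library 3 and 2505 CPM in library 4.

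The genes whose levels over the 11 named classes were most like Trem2 were Mertk (Pearson r 0.988), the member Lpl (0.987), Cxcl14 (0.984), Nr1h3, which encodes the sterol receptor LXR-alpha (0.980), and Tfec (0.979). Those most like Spp1 were C3 (0.967), Cstb (0.954), Cdc42ep2 (0.940), Ugt1a7c (0.937) and Sod2 (0.935). Between Spp1 and Trem2 themselves r was 0.817 over the same classes. These r values share libraries and are given without a test.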

How the data were processed

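Tumour cell suspensions were stained for CD45 and EPCAM, sorted and captured with the 10x Genomics 3′ V3 kit, per the labels' protocols. The deposited table holds unnormalized UMI counts for each gene in each barcode. The submitters' processing notes name Cell Ranger 3.0.2 and mm10, and the file's header gives the same software version, without an annotation release. The 4 barcode suffixes are not mapped to samples, so library values stand alone, no samples were averaged and no p-value was computed. Of 18026 barcodes, 14198 passed a filter of 200 genes and 500 UMIs or more with mitochondrial UMIs no higher than 20%. Scrublet, run per library, marked 60 (0.423%), which were removed. The calls numbered 1, 6, 50 and 3 in libraries 1 to 4. So small a share is not relied on, why it was small was not tested, and doublets may remain. Between libraries, 24 barcode sequences were shared (37 kept barcodes, 3 of them monocyte/macrophage-like).

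Counts were scaled, log-transformed and clustered (Scanpy 1.11.5; 2000 variable genes, 30 components, 15 neighbours, Leiden resolution 1; igraph 0.11.9), with the 10 genes, the lists and C1q genes kept out of the features. A cluster was named, written "-like", from marker lists with a score of at least 3 (log2) that led by 1.5 the unrelated lists that also reached 3. An erythroid score did not count unless an erythroid marker was among the 10 leading genes. In 2 named clusters, 1 epithelial-like and that led by Gm15056 and Serpinb2, erythroid was the highest score. At least 3 markers had to be seen in at least 10% of its cells. The naming limits, the 75% C1q cut, thinning to 5000 UMIs and the expected shares over thinning draws were set after data were seen. The names are rebuilt here, not the authors'. Unnamed clusters stayed out of the classes, among them 420 cells with macrophage and neutrophil RNA.

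Summed counts were scaled to CPM with exact 95% Poisson intervals. Shares carry exact Clopper-Pearson intervals, and both cover counting error only. A 0 allows up to 3 counts. Log2 folds add 1 CPM and need 10 UMIs in both groups together, and a gene was called at 2-fold. Near that minimum counting noise adds to the share called. Shares used cells thinned to 2000 UMIs. Besides the 10 genes, the text names up to 3 genes of each list with the largest absolute fold in a comparison, and the 5 genes most like Spp1 or Trem2 over classes. Arg1, Mmp12, Fabp4, Nceh1, Lipa, Cd63 and markers outside that rule were named after their values were seen. Members and lists were chosen with earlier results of these data known. Scripts were tested on simulated data. Promoter sequences are from RefSeq (GRCm38.p6), where 7 of the 10 genes had an entry. Egfr, the deleted gene, gave 0 UMIs in monocyte/macrophage-like, 4 in neutrophil-like and 357 in epithelial-like cells, and a 3′ count checks no label.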

Additional observations from a re-analysis of the deposited data

How the results depend on the processing

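With 1 pooled matrix no call rests on a test, and each alternative changed 1 choice. Single members had 304 alternative values, of which 0 had the other sign for a member past 2-fold and 27 moved by more than 0.5 on the log2 scale. Some members short of 2-fold did change sign. In C1q-positive over C1q-low cells Fabp5 ran from -0.53 to 0.51 and Gpnmb from -0.32 to 1.94. In cells with Trem2 alone over Spp1 alone, Cd36 ran from -1.10 to 1.48, Lpl from -0.21 to 1.25 and Gpnmb from -0.14 to 5.81. Members at least 2-fold higher in C1q-positive cells numbered 3, and 5 without library 4. Those lower numbered 2, but 1 when cells were divided by their own C1q UMIs, 1 without the Gm15056 and Serpinb2 cluster and 1 with the unnamed macrophage and neutrophil cluster counted as C1q-positive, and 3 with the mean of single-cell CPM. In the drawn set, the Spp1 share in cells with Trem2 minus that in cells without was 0.03 points over both classes, against -4.44 without library 4, 4.93 without thinning and 3.96 without the Gm15056 and Serpinb2 cluster. In C1q-positive cells it was 5.88 points, against 1.30 at 1000 UMIs, 1.58 at 5000 UMIs, 1.29 with another seed and 14.0 without thinning, and in C1q-low cells 2.59 points, against -6.76 without library 4. Of the other 8 members, 1 was higher in cells with Trem2 alone than with Spp1 alone, against 2 at Leiden resolution 0.5, at resolution 2, with list genes kept as features and at 5000 UMIs, and 4 without library 4; 1 was lower, against 2 without library 3 and 2 at 5000 UMIs. The cause of these moves was not tested. Co-detection is limited by depth, with about 76.8 cells of both kinds expected at 2000 UMIs. No paired analysis was possible because barcodes are mapped to no sample.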

Other observations

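Plasma-like cells had 16.8 CPM of Gpnmb, from 234 UMIs, or 19.3% of all kept Gpnmb UMIs, and C1q-positive cells had 17.4 CPM. A Gpnmb UMI was seen in 2.71% of 443 plasma-like cells thinned to 2000 UMIs and in 0 of 1386 B-like cells, which allows up to 0.216% by 3 counts (0.266% by Clopper-Pearson). Basophil-like cells had the highest Cd9 of the named classes, at 2758 CPM. The unnamed cluster with macrophage and neutrophil RNA had an expected Spp1 share of 12.6% in cells with Trem2 and 15.3% in cells without.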
